A study of Mus musculus with 11 samples.

Results

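Fibroblast growth factors (FGFs) are secreted proteins that bind receptor tyrosine kinases of the FGFR family on nearby cells, with heparan sulfate chains as cofactors. The activated receptors feed mainly into the RAS and ERK cascade, which in turn induces its own inhibitors, such as the Sprouty proteins and dual specificity phosphatases. In the embryonic face FGF8 from the surface ectoderm acts on the neural crest derived mesenchyme of the first branchial arch and of the nasal region, where it is known for supporting survival and outgrowth. The receptor FGFR2 serves both epithelium and mesenchyme through splice forms that gene counts cannot separate.

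The values below are those of 9 genes, given by name, of 38561 genes in the count tables. They are 6 ligands, *Fgf8*, *Fgf9*, *Fgf10*, *Fgf15*, *Fgf17* and *Fgf18*, and 3 receptors, *Fgfr1*, *Fgfr2* and *Fgfr3*. All 9 were found by symbol, and all 9 passed the filter on low counts that left 17317 genes for testing. RNA came from freshly dissected facial processes (the mandibular and maxillary parts of the first branchial arch and the nasal processes) of mouse embryos at E10.5. All embryos were of mixed strain, and the 4 groups were wt (wild type, 2 libraries), *Rspo2*KO (homozygous for an *Rspo2* null mutation, 3 libraries), *Wnt9b*KO (homozygous *Wnt9b* mutants, 3 libraries) and DKO (homozygous for both, 3 libraries). *Rspo2* encodes a secreted potentiator of WNT signaling and *Wnt9b* a WNT ligand, and the study asked how they act together in the face. Both genes were lost throughout the embryo, not in 1 tissue, and ectoderm and mesenchyme were extracted together. Because the tissue is a mixture, fewer cells of a type and less RNA per cell cannot be told apart in these values. The labels do not say whether the libraries of a group came from separate embryos, so p-values measure the spread between libraries, which may be technical.

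Some libraries went against their labels or stood apart in ways that bear on the results. *Rspo2* was 14.8 and 16.0 CPM (the count relative to the library total, scaled by TMM factors) in wt and 4.74 to 6.59 CPM in *Rspo2*KO, but 2.86 CPM in the library labelled *Wnt9b*KO 2 and 15.5 CPM in the library labelled DKO 3. All libraries were kept under their labels, and values of the main FGF genes that moved without these 2 are given beside them. *Wnt9b* itself lay at 10.8 and 13.4 CPM in wt and at 16.2 to 23.3 CPM in *Wnt9b*KO and DKO, so reads over the whole gene do not check this mutation. Small nuclear RNAs summed to 351.9 to 419.6 CPM in wt and *Rspo2*KO against 70.13 to 82.73 CPM in *Wnt9b*KO and DKO. The *Wnt9b* genotype therefore cannot be told apart from this library difference, whereas *Rspo2*KO against wt and DKO against *Wnt9b*KO compare libraries of like small nuclear RNA content. *Xist*, the transcript of the inactive X chromosome, was at 680 to 1470 CPM in wt and DKO and at 0.821 to 1.94 CPM in both single mutants, and *Ddx3y*, on the Y chromosome, at 0.0587 to 4.43 and 57.6 to 75.7 CPM. Of the 5 comparisons between genotypes, only DKO against wt was therefore between libraries alike in these transcripts. In the other 4 and in the interaction, genotype cannot be told apart from embryo sex. The mean *Rspo2* effect averages *Rspo2*KO against wt and DKO against *Wnt9b*KO, in which sex differs in opposite directions. A sex difference alike in both cancels there, and one that is not alike does not.

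Markers of both facial tissues were present in every library. The 10 markers of surface epithelium summed to 260 to 318 CPM, with *Krt8* and *Krt18* the highest. The 9 markers of facial mesenchyme, led by *Prrx1* and *Col1a2*, summed to 1300 to 1370 CPM in wt, 1000 to 1120 in *Rspo2*KO, 1010 to 1960 in *Wnt9b*KO and 1240 to 1340 in DKO. None of these markers was at 0 in any library. Other tissues were present too. Erythroid markers, led by *Hbb-y* and *Hbb-bh1*, summed to 3910 to 5710 CPM in wt and *Rspo2*KO and to 1720 to 2820 CPM in *Wnt9b*KO and DKO. Heart and striated muscle markers, led on average by *Actc1* and *Myf5*, summed to 49.5 CPM in wt 1 and to 4.53 to 13.0 CPM in the other libraries. *Actc1* was 24.5 CPM in wt 1 and 4.95 CPM in wt 2, and *Myf5* was 3.57 and 2.96 CPM. *Myl7*, *Myl4* and *Tnnt2*, named here after their values were seen, were 9.65, 6.52 and 5.09 CPM in wt 1. In wt 2 they were 1.93, 0.362 and 0.242 CPM. Markers of endothelium (*Kdr*, *Cdh5*, 146 to 191 CPM) were in every library. Genes listed for pharyngeal endoderm summed to 27.2 to 42.6 CPM, mostly from *Pax9* and *Shh*, with means of 14.5 and 13.7 CPM. *Foxa1*, *Foxa2* and *Nkx2-3* of that list, named here after their values were seen, averaged 1.51, 1.88 and 2.68 CPM. That sum thus rests on *Pax9* and *Shh*, and whether endoderm was present was not tested. Those of forebrain and eye and of neurons stand below beside the FGF genes they moved with.

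Among the ligands per length of transcript, *Fgf8* and *Fgf17* were the highest. In wt, the levels per kilobase of exon were 6.81 CPM for *Fgf8* (5.55 and 8.07 in the 2 libraries) and 5.62 CPM for *Fgf17* (4.87 and 6.37), ranges that overlapped. *Fgf10* followed at 1.91 CPM per kilobase (1.79 and 2.04), above *Fgf15* at 1.32, *Fgf18* at 1.26 and *Fgf9* at 1.10, whose library ranges overlapped one another. Of the receptors, *Fgfr1* stood at 13.0 CPM per kilobase (12.5 and 13.6), *Fgfr2* at 11.2 (10.7 and 11.8) and *Fgfr3* at 6.34 (5.78 and 6.89). *Fgfr1* and *Fgfr2* thus exceeded every ligand in wt, while *Fgfr3* overlapped *Fgf8* and *Fgf17*. These levels rest on the exon lengths of the annotation, whichever transcripts were present.

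**Figure D1:**
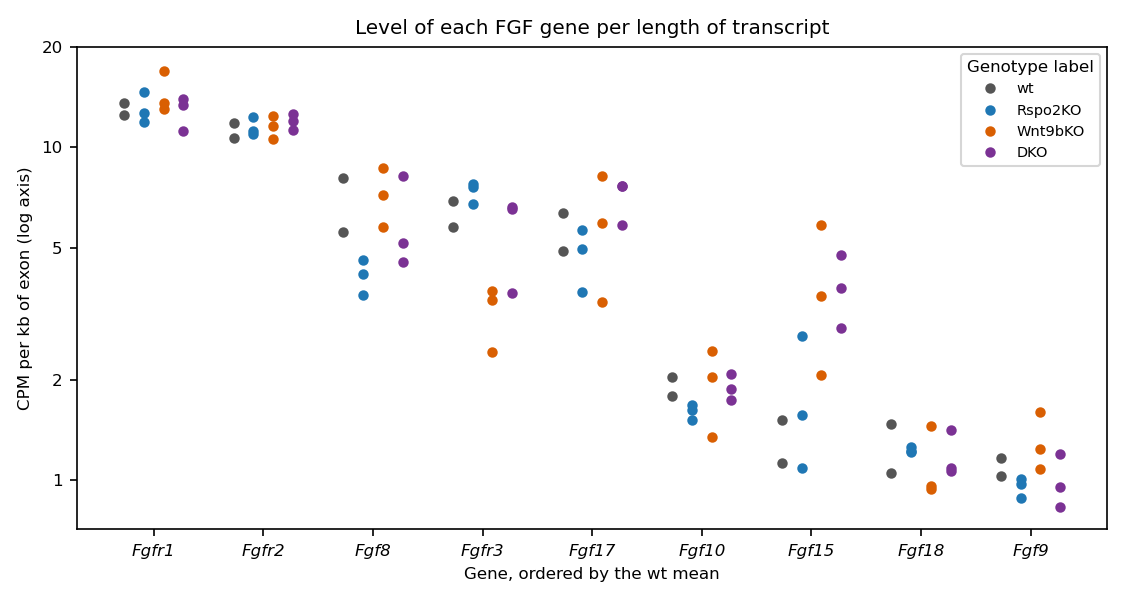
Level of each of the 9 genes in CPM per kilobase of exon (log axis) in every library, with genes ordered by the wt mean and each point 1 library colored by genotype. *Fgfr1* and *Fgfr2* sit highest and close together in all genotypes, and *Fgf15* and *Fgfr3* span the widest ranges on this axis, with *Fgf15* at 1.13 to 1.52 in wt against 2.86 to 4.74 in DKO.

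*Fgf8* (ENSMUSG00000025219, GRCm38 19:45736798-45742915, minus strand) is the ectodermal ligand of the first arch and the nasal region. Its level was 10.9 and 7.49 CPM in wt, 5.62, 6.19 and 4.86 CPM in *Rspo2*KO, 7.77, 9.72 and 11.7 CPM in *Wnt9b*KO and 6.11, 6.98 and 11.05 CPM in DKO, from 75 to 195 reads per library. The 3 *Rspo2*KO libraries were the lowest of all groups on average and did not overlap with wt, while *Wnt9b*KO and DKO overlapped with wt. The *Rspo2*KO mean was 5.56 ± 0.666 CPM (SD, n = 3) against 9.19 ± 2.41 CPM (SD, n = 2) in wt. This was a log2 fold change of -0.71 (SE 0.26, 95% interval -1.27 to -0.15), with an unadjusted p of 0.0163 and an adjusted p of 0.298, so it did not pass the threshold. Adjusted p-values here and below are from edgeR's quasi-likelihood test with Benjamini-Hochberg adjustment over all 17317 genes, with a threshold of 0.05. The value moved between -0.42 without wt 1 and -0.97 without wt 2.

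In DKO, the highest *Fgf8* library was DKO 3, the library whose *Rspo2* level was like wt, at 11.05 CPM against 6.11 and 6.98 CPM in DKO 1 and DKO 2. With all libraries, *Fgf8* in DKO differed from wt by -0.18 (SE 0.26, interval -0.73 to 0.37, adjusted p = 0.644) and from *Wnt9b*KO by -0.27 (SE 0.23, interval -0.75 to 0.21, adjusted p = 0.978). Without *Wnt9b*KO 2 and DKO 3 these log2 differences were -0.48 (SE 0.242, adjusted p = 0.162) and -0.57 (SE 0.237, adjusted p = 0.804). *Wnt9b*KO alone differed from wt by 0.09 (SE 0.25, interval -0.45 to 0.64, adjusted p = 0.811). The mean *Rspo2* effect, which averages *Rspo2*KO against wt and DKO against *Wnt9b*KO, was -0.49 for *Fgf8* (SE 0.17, interval -0.86 to -0.12), with an unadjusted p of 0.0126 and an adjusted p of 0.375. It came to -0.65 without the 2 libraries (SE 0.163, adjusted p = 0.198). DKO stood 0.53 above *Rspo2*KO (SE 0.24, interval 0.03 to 1.04, adjusted p = 0.137), and 0.24 without the 2 libraries (SE 0.226, adjusted p = 0.516) or without DKO 3 alone. The interaction of the 2 genotypes on *Fgf8* was 0.44 (SE 0.35, interval -0.30 to 1.18, adjusted p = 0.703), and 0.15 without the 2 libraries (SE 0.326, adjusted p = 0.919), without DKO 3 alone or without wt 1 alone. No comparison of *Fgf8* therefore passed the adjusted threshold in the main edgeR fit. With no filter on low counts, DKO against *Rspo2*KO (adjusted p = 0.0452) and the mean *Rspo2* effect (adjusted p = 0.0462) passed it.

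*Fgf15* (ENSMUSG00000031073, 7:144896531-144900953, plus strand) is a ligand best known in the embryo from the developing brain and eye. It was the most variable of the 9 genes, with a coefficient of variation of 55.2% over the 11 libraries and a 5.34-fold span. Levels were 4.64 and 3.44 CPM in wt, 8.31, 4.80 and 3.35 CPM in *Rspo2*KO, 6.34, 17.9 and 10.97 CPM in *Wnt9b*KO and 14.5, 11.5 and 8.74 CPM in DKO. All 6 libraries of *Wnt9b*KO and DKO lay above both wt libraries, and *Rspo2*KO overlapped with wt. The library with the highest value was *Wnt9b*KO 2, whose *Rspo2* level went against its label.

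*Fgf15* rose in *Wnt9b*KO against wt, from 4.04 ± 0.85 CPM (SD, n = 2) to 11.7 ± 5.81 CPM (SD, n = 3). The log2 fold change was 1.55 (SE 0.42, interval 0.64 to 2.46) with an adjusted p of 0.0124. It rose to a like mean in DKO, 11.6 ± 2.88 CPM (SD, n = 3), a log2 fold change of 1.54 (SE 0.42, interval 0.63 to 2.44, adjusted p = 0.0155). Against *Rspo2*KO, DKO stood 1.09 higher (SE 0.35, interval 0.34 to 1.85, adjusted p = 0.0439), and these groups did not overlap. DKO and *Wnt9b*KO differed by -0.01 (SE 0.33, interval -0.72 to 0.70, adjusted p = 0.999), and *Rspo2*KO and wt by 0.44 (SE 0.44, interval -0.49 to 1.38, adjusted p = 0.726). The interaction was -0.45 (SE 0.55, interval -1.63 to 0.72, adjusted p = 0.817). The comparisons that *Fgf15* passed are among those in which the *Wnt9b* genotype cannot be told apart from the library difference given above.

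Without *Wnt9b*KO 2 and DKO 3, the rise of *Fgf15* was 1.11 in *Wnt9b*KO (SE 0.369, adjusted p = 0.0374) and 1.70 in DKO (SE 0.363, adjusted p = 0.00486) against wt, and 1.27 in DKO against *Rspo2*KO (SE 0.308, adjusted p = 0.0135). Single wt libraries decided the call: in *Wnt9b*KO against wt it became 1.76 with an adjusted p of 0.0541 without wt 1, and 1.33 with an adjusted p of 0.123 without wt 2. In DKO against wt it became 1.74 (adjusted p = 0.0679) without wt 1, 1.32 (adjusted p = 0.143) without wt 2 and 1.34 (adjusted p = 0.0521) without DKO 1. The comparison of DKO with *Rspo2*KO lost its call without 7 of the 11 libraries taken in turn, at adjusted p-values of 0.0552 to 0.19, namely wt 1, wt 2, *Rspo2*KO 2, *Rspo2*KO 3, *Wnt9b*KO 3, DKO 1 and DKO 2, with log2 values from 0.83 to 1.11. DESeq2 gave 1.08 for this comparison, with an adjusted p of 0.0844.

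Markers of forebrain and eye moved with *Fgf15*. The 10 genes of that list, of which *Lhx2* and *Otx2* were the highest, summed to 92.0 and 78.7 CPM in wt, 125, 106 and 94.3 CPM in *Rspo2*KO, 128, 237 and 167 CPM in *Wnt9b*KO and 173, 154 and 126 CPM in DKO. None of the 10 was at 0 in any library. In *Wnt9b*KO 8 of the 10 rose against wt, in DKO 6 of 10, and against *Rspo2*KO 3 of 10 were higher in DKO, while 32.8%, 27.5% and 18.2% of all genes passed in these comparisons. In *Rspo2*KO against wt 0 of 10 passed by edgeR's adjusted p, beside 0.0346% of all genes. There 3 of 10 were higher past an unadjusted p of 0.05 and 1.5-fold, beside 4.0% of all genes. *Lhx2*, a transcription factor of eye and forebrain, averaged 24.6 CPM in wt, 53.7 CPM in *Wnt9b*KO (log2 1.13, SE 0.24, adjusted p = 0.00316) and 43.9 CPM in DKO (log2 0.84, SE 0.24, adjusted p = 0.0202). *Otx2*, a head patterning factor, passed in *Wnt9b*KO (log2 0.88, SE 0.28, adjusted p = 0.025) and stood at 0.76 in DKO (SE 0.28, adjusted p = 0.0543). The 4 markers of olfactory and otic placode given here, of which *Eya1* was the highest, were higher in the same groups, at 50.8 and 52.6 CPM summed in wt, 60.1 to 64.7 CPM in *Rspo2*KO, 70.5 to 84.4 CPM in *Wnt9b*KO and 66.8 to 78.3 CPM in DKO. Of the 3 tested, 2 rose in *Wnt9b*KO and 1 in DKO against wt, beside 32.8% and 27.5% of all genes called in either direction.

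Set against the summed marker level of the same library, *Fgf15* was 5.05 and 4.37 CPM per 100 CPM of the forebrain and eye list in wt. It was 6.64, 4.51 and 3.55 in *Rspo2*KO, 4.96, 7.55 and 6.58 in *Wnt9b*KO and 8.37, 7.48 and 6.92 in DKO. On this scale *Wnt9b*KO overlapped with wt, whereas the 3 DKO libraries remained above both wt libraries. The part of forebrain, eye or placode tissue in the *Fgf15* result was not tested further. The genes most like *Fgf15* over the 11 libraries were *Sox1*, a transcription factor of neural progenitors, and *Epb41l5*, each with a Pearson correlation of 0.97 of log2 CPM, as a description over libraries that share genotype and depth.

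**Figure D2:**
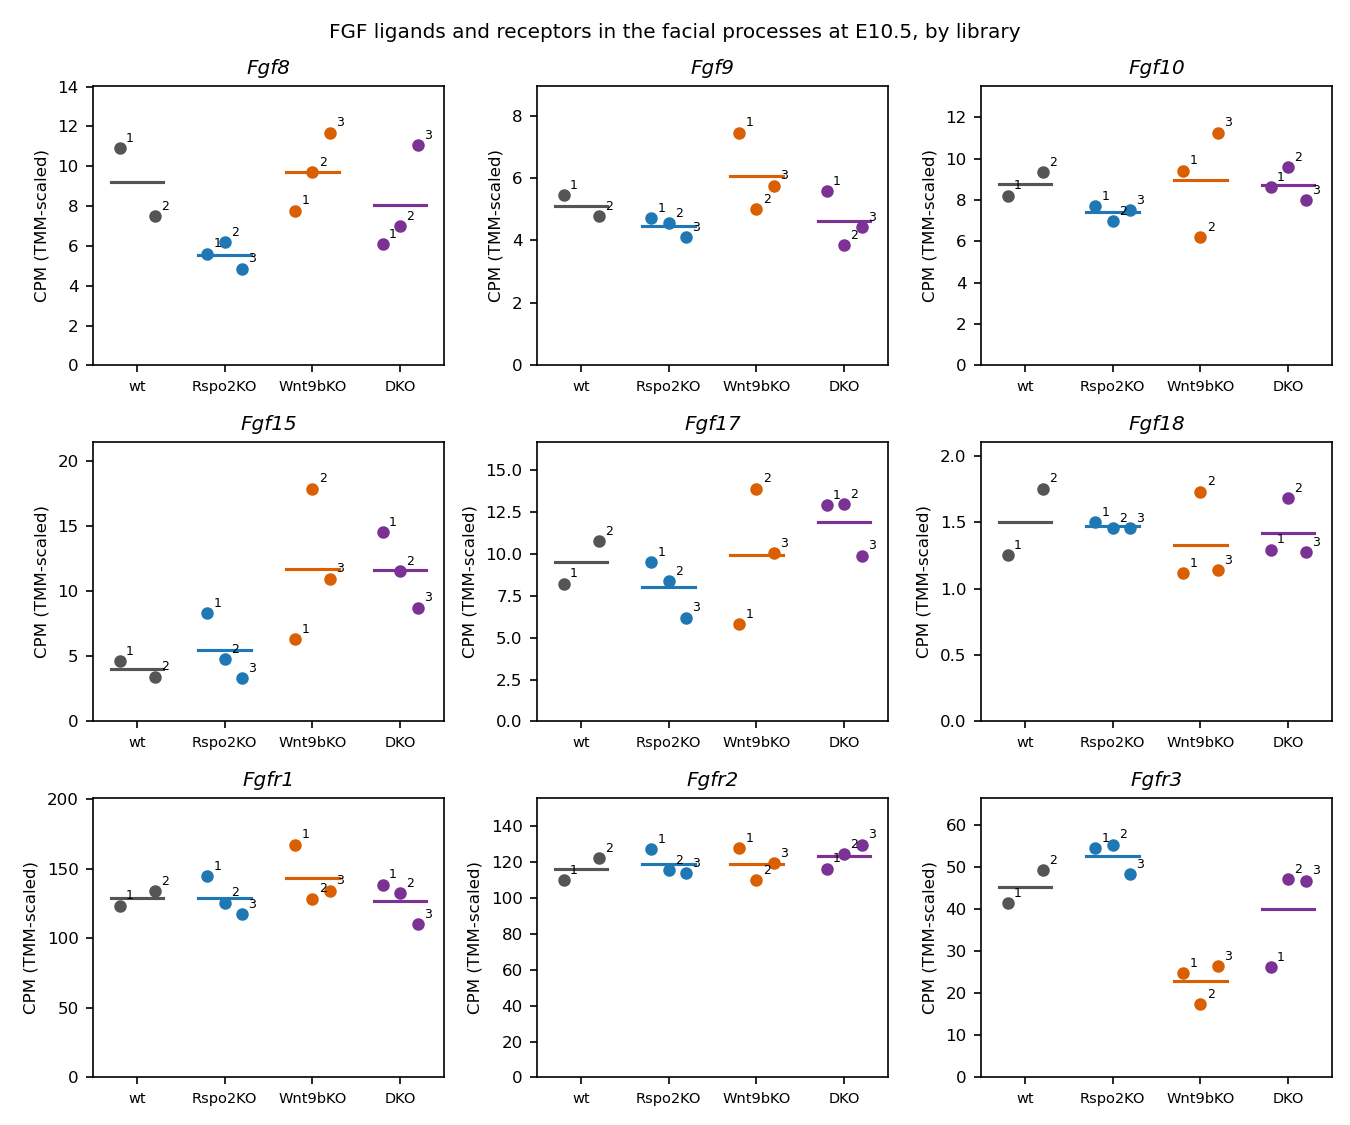
Level of each gene in CPM in the 11 libraries, 1 panel per gene with its own axis, points labelled by replicate number and horizontal bars at the group means. *Fgf8* is lowest on average in *Rspo2*KO (4.86 to 6.19), *Fgf15* is above wt in all 6 *Wnt9b*KO and DKO libraries, and *Fgfr3* is low in the 3 *Wnt9b*KO libraries and in DKO 1 (26.2).

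*Fgf17* (ENSMUSG00000022101, 14:70636203-70642268, minus strand) belongs to the same subfamily as *Fgf8* and is known from the midbrain and hindbrain border and the anterior forebrain. It was 8.22 and 10.8 CPM in wt, 9.51, 8.38 and 6.19 CPM in *Rspo2*KO, 5.80, 13.9 and 10.02 CPM in *Wnt9b*KO and 12.9, 13.0 and 9.89 CPM in DKO. *Wnt9b*KO held both the lowest and the highest library, so this group spanned all the others. DKO did not overlap with *Rspo2*KO and stood 0.57 above it (SE 0.26, interval 0.02 to 1.12), with an unadjusted p of 0.0419 and an adjusted p of 0.142. Against wt, DKO differed by 0.32 (SE 0.29, interval -0.30 to 0.94, adjusted p = 0.444). Without *Wnt9b*KO 2 and DKO 3, DKO stood 0.70 above *Rspo2*KO (SE 0.229, adjusted p = 0.0527). DKO against *Wnt9b*KO went from 0.27 to 0.71 (SE 0.252, adjusted p = 0.618) and *Wnt9b*KO against wt from 0.05 to -0.28 (SE 0.259, adjusted p = 0.436). The interaction went from 0.53 to 0.98 (SE 0.346, adjusted p = 0.53). DKO against *Rspo2*KO passed under 3 of 21 alternatives, at adjusted p-values down to 0.0178. Over the 11 libraries *Fgf17* had a correlation of 0.71 with *Fgf15*, the highest between any pair of the 9 genes, given as a description.

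*Fgf9* (ENSMUSG00000021974, 14:58070547-58112720, plus strand) is an epithelial and mesothelial ligand that signals to mesenchyme. Levels were 5.45 and 4.77 CPM in wt, 4.72, 4.55 and 4.11 CPM in *Rspo2*KO, 7.45, 5.01 and 5.76 CPM in *Wnt9b*KO and 5.58, 3.86 and 4.43 CPM in DKO. Although all 3 *Rspo2*KO libraries lay below wt, they did so by little, with a log2 difference of -0.19 (SE 0.22, interval -0.67 to 0.28, adjusted p = 0.775). The largest difference was that of DKO from *Wnt9b*KO, -0.39 (SE 0.19, interval -0.80 to 0.01, adjusted p = 0.893).

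*Fgf10* (ENSMUSG00000021732, 13:118669791-118792115, plus strand) is a mesenchymal ligand of the epithelial splice form of FGFR2. Levels were 8.22 and 9.36 CPM in wt, 7.71, 6.98 and 7.52 CPM in *Rspo2*KO, 9.42, 6.20 and 11.3 CPM in *Wnt9b*KO and 8.63, 9.59 and 8.01 CPM in DKO. *Rspo2*KO was again below wt without overlap, by -0.25 (SE 0.21, interval -0.71 to 0.20, adjusted p = 0.677). Against wt, *Wnt9b*KO differed by 0.02 (interval -0.43 to 0.47, adjusted p = 0.944) and DKO by -0.01 (interval -0.46 to 0.44, adjusted p = 0.973). The genes most like *Fgf10* were *Bmp4*, a BMP ligand, and *Gfod1*, each with a correlation of 0.82.

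*Fgf18* (ENSMUSG00000057967, 11:33117430-33147400, minus strand), a ligand known from developing bone and palate, was the lowest of the 9 genes in reads, with 14 to 29 per library. Its level was 1.25 and 1.75 CPM in wt and ranged from 1.12 to 1.73 CPM over the 9 mutant libraries, so every mutant group overlapped with wt. Over the 5 comparisons its log2 differences were -0.20 to 0.09, none with an adjusted p below 0.635. The intervals reached from -0.85 to 0.66, which leaves changes of that size undetectable at this depth.

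Of the 6 ligands, 3 (*Fgf8*, *Fgf9* and *Fgf10*) were thus lower in every *Rspo2*KO library than in either wt library. Of all 17317 genes tested, 15.7% were lower in *Rspo2*KO without overlap, and the adjusted threshold was passed by 0 of the 9 FGF genes and by 0.0346% of all genes. By unadjusted p, 1 of the 9 (*Fgf8*) was below 0.05, against 11.9% of all genes.

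*Fgfr1* (ENSMUSG00000031565, 8:25513654-25575718, plus strand) is the main receptor of mesenchyme. It was 124 and 134 CPM in wt, 145, 126 and 118 CPM in *Rspo2*KO, 167, 129 and 134 CPM in *Wnt9b*KO and 139, 133 and 110 CPM in DKO, with group means of 127 to 143 CPM. All mutant groups overlapped with wt. The log2 differences from wt were 0.00 in *Rspo2*KO (interval -0.29 to 0.30, adjusted p = 0.995), 0.15 in *Wnt9b*KO (interval -0.14 to 0.45, adjusted p = 0.415) and -0.02 in DKO (interval -0.31 to 0.27, adjusted p = 0.933).

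*Fgfr2* (ENSMUSG00000030849, 7:130162451-133123350, minus strand) was the steadiest of the 9 genes, with a coefficient of variation of 5.92% over all libraries and a span of 1.18-fold. Levels were 110 and 122 CPM in wt, 127, 115 and 114 CPM in *Rspo2*KO, 128, 110 and 120 CPM in *Wnt9b*KO and 116, 124 and 130 CPM in DKO. The differences from wt were 0.03 in *Rspo2*KO and 0.03 in *Wnt9b*KO, each with an interval of -0.19 to 0.26, and 0.09 in DKO (interval -0.14 to 0.31), at adjusted p-values of 0.94, 0.829 and 0.574. With an offset for GC content and transcript length the differences of *Fgfr1* and *Fgfr2* from wt were negative, down to -0.28 for *Fgfr1* in DKO (SE 0.101, adjusted p = 0.048), the only one of them past the threshold under that offset. With the replicate number added to that offset, *Fgfr2* in *Wnt9b*KO reached -0.26 (SE 0.0946, adjusted p = 0.0496). The RefSeq span of *Fgfr2* is 7:130162451-130266808, so the GENCODE span given here reaches far beyond it. Of its GENCODE exons, 314 of 10328 bases are shared with *Ctbp2* on the same strand, and reads there cannot be told apart.

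*Fgfr3* (ENSMUSG00000054252, 5:33721674-33737068, plus strand) is known in the embryo from neural progenitors and cartilage. A stretch of 200 bases upstream of its start is shown because it is the receptor that differed. It ends just before the GENCODE start at 33721674 and lies upstream of the RefSeq start at 33721724 as well. It is from RefSeq, GRCm38.p6, chr5:33721474-33721673, plus strand, with the 2 matches to the GC box GGGCGG, read here as its reverse complement, in capitals.
Fgfr3 upstream: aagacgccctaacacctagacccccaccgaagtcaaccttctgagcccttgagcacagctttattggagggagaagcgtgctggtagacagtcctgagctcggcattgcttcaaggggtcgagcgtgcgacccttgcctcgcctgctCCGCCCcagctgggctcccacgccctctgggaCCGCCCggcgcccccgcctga
The stretch has 65.0% GC. Promoter windows of 300 bases, from 250 before to 50 after a start, were at hand for 5 of the 9 genes, *Fgf9*, *Fgf10*, *Fgf18*, *Fgfr2* and *Fgfr3*, in 6 windows. GGGCGG on either strand was in 4 of these 6 windows and in 35.7% of all 32851 windows. The letters CTTTGAT or CTTTGAA, a core read by the TCF and LEF factors of WNT signaling, were on either strand in 0 of the 6 and in 8.65% of all windows, which says only that these letters were not in these windows.

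*Fgfr3* was 41.4 and 49.4 CPM in wt, 54.4, 55.4 and 48.3 CPM in *Rspo2*KO, 24.8, 17.4 and 26.5 CPM in *Wnt9b*KO and 26.2, 47.2 and 46.8 CPM in DKO. The 3 *Wnt9b*KO libraries lay far below wt, whereas DKO was split, with DKO 1 at the level of *Wnt9b*KO and the other 2 libraries within the wt range. *Fgfr3* fell in *Wnt9b*KO against wt, from 45.4 ± 5.66 CPM (SD, n = 2) to 22.9 ± 4.84 CPM (SD, n = 3). In this comparison the genotype cannot be told apart from embryo sex or the small nuclear RNA difference, which no alternative setting separates. The log2 fold change of *Fgfr3* was -0.99 (SE 0.22, interval -1.46 to -0.52) with an adjusted p of 0.00359. This call was kept under all 21 alternatives that recomputed it, at values from -1.27 to -0.80 and adjusted p-values of at most 0.048, among them -0.83 without *Wnt9b*KO 2 and DKO 3 (SE 0.211, adjusted p = 0.0107).

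In DKO, *Fgfr3* averaged 40.1 ± 12.0 CPM (SD, n = 3) and differed from wt by -0.18 (SE 0.22, interval -0.65 to 0.28, adjusted p = 0.573), a value that was 0.05 without DKO 1. DKO stood 0.80 above *Wnt9b*KO (SE 0.20, interval 0.38 to 1.23), with an unadjusted p of 0.00112 and an adjusted p of 0.224, and the groups overlapped through DKO 1. Without DKO 1 this difference was 1.04 (SE 0.158, adjusted p = 0.00747), and by DESeq2 on all libraries 0.81 (SE 0.205, adjusted p = 0.0265), so that this call rested on DKO 1 and on the test. Without *Wnt9b*KO 2 and DKO 3 it was 0.51 (SE 0.21, adjusted p = 0.792). *Rspo2*KO differed from wt by 0.21 (SE 0.22, interval -0.25 to 0.68, adjusted p = 0.737), and DKO from *Rspo2*KO by -0.40 (SE 0.19, interval -0.81 to 0.02, adjusted p = 0.18). The mean *Rspo2* effect on *Fgfr3* was 0.51 (SE 0.15, interval 0.19 to 0.83), with an unadjusted p of 0.00383 and an adjusted p of 0.295, and the interaction was 0.59 (SE 0.29, interval -0.04 to 1.22, adjusted p = 0.55). Without *Wnt9b*KO 2 and DKO 3 these were 0.36 (SE 0.142, adjusted p = 0.466) and 0.31 (SE 0.282, adjusted p = 0.773).

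Summed neuronal markers were lower in the *Wnt9b*KO libraries too. The 7 markers of neurons and ganglia given here, with *Tubb3* and *Elavl4* the highest, summed to 502 and 542 CPM in wt, 665, 599 and 654 CPM in *Rspo2*KO, 446, 310 and 410 CPM in *Wnt9b*KO and 558, 589 and 545 CPM in DKO. The *Wnt9b*KO sums lay below those of all other libraries, and none of the 7 was at 0 in any library. *Tubb3* made up most of each sum, at 304 and 334 CPM in wt and 243, 169 and 217 CPM in *Wnt9b*KO. Of the others, named here after their values were seen, *Isl1* was also lower in every *Wnt9b*KO library than in wt. *Neurog1* was higher in every one, and *Elavl3*, *Elavl4*, *Stmn2* and *Neurod1* overlapped with wt. By edgeR's adjusted p, 1 of the 7 fell in *Wnt9b*KO against wt, where 32.8% of all genes passed. In DKO against wt 3 rose, beside 27.5% of all genes, and in DKO against *Wnt9b*KO 0 passed, beside 0.121%. In the last comparison 2 of 7 were higher past an unadjusted p of 0.05 and 1.5-fold, against 1.84% of all genes. In DKO 1, the DKO library low in *Fgfr3*, the sum lay between those of DKO 2 and DKO 3. The genes most like *Fgfr3* were *Mybpc1* and *Neurog2*, the latter a factor of neurogenesis, each with a correlation of 0.97 over the 11 libraries. *Fgfr3* per 100 CPM of the 7 neuronal markers was 8.24 and 9.11 CPM in wt, 8.19, 9.24 and 7.38 CPM in *Rspo2*KO, 5.57, 5.62 and 6.47 CPM in *Wnt9b*KO and 4.70, 8.02 and 8.58 CPM in DKO. On this scale too the 3 *Wnt9b*KO libraries lay below both wt libraries, and DKO 1 was the lowest of the 11.

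**Figure D3:**
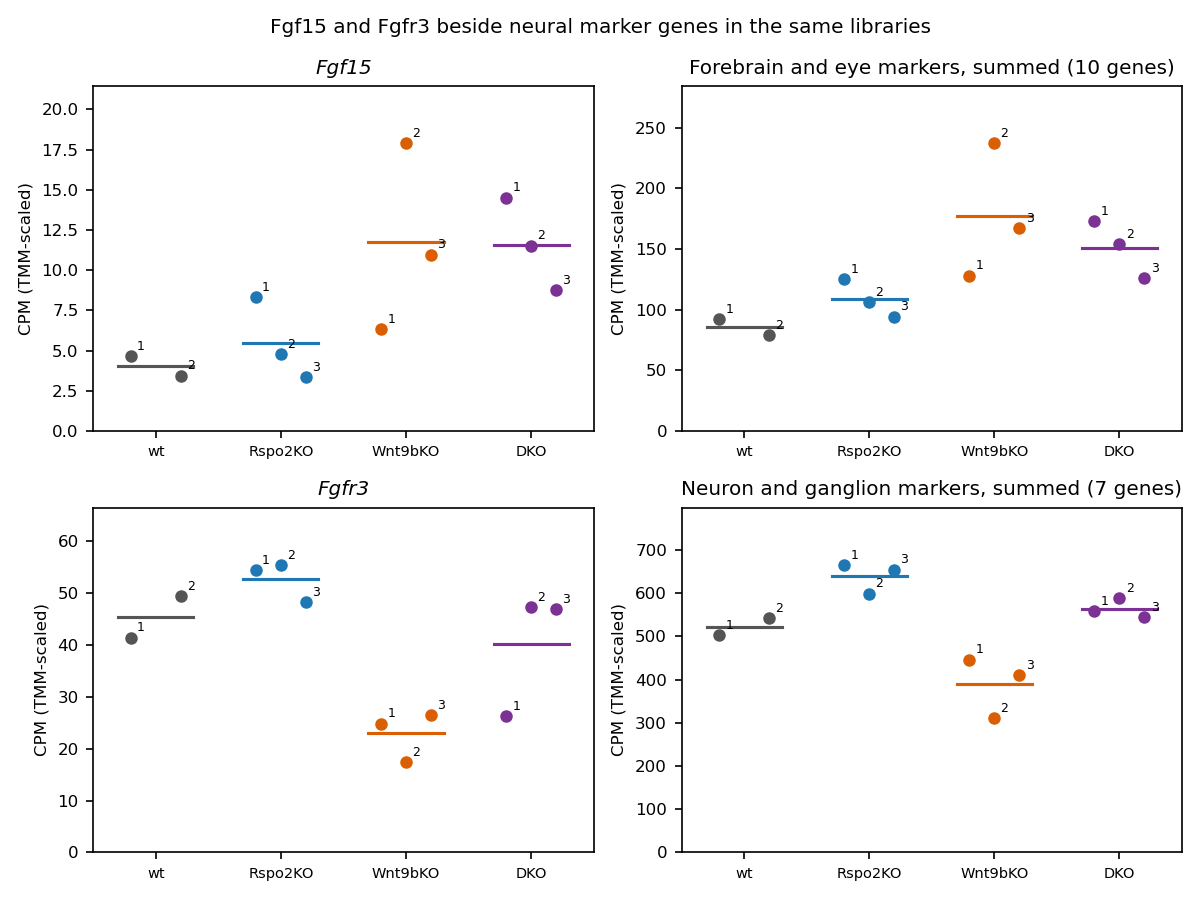
*Fgf15* beside the summed forebrain and eye markers, and *Fgfr3* beside the summed neuron and ganglion markers, all in CPM in the same 11 libraries, colored by genotype, labelled by replicate number and with bars at the group means. Libraries high in *Fgf15* are those high in the forebrain and eye sum (wt at 78.7 and 92.0, *Wnt9b*KO at 128 to 237), and DKO 1 lies with *Wnt9b*KO in *Fgfr3* (26.2) but with the other DKO libraries in the neuronal sum (558).

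Across the comparisons, *Fgf15* and *Fgfr3* were the only 2 of the 9 genes with an adjusted p below 0.05 in the main edgeR fit. Under at least 1 alternative setting, *Fgf8*, *Fgf17*, *Fgfr1* and *Fgfr2* passed in a comparison as well. In *Wnt9b*KO against wt 2 of 9 passed, 1 higher and 1 lower, against 32.8% of all genes. In DKO against wt 1 of 9 passed, against 27.5% of all genes. In DKO against *Rspo2*KO 1 of 9 passed, against 18.2%, and 3 of 9 were below an unadjusted p of 0.05, against 31.4%. In DKO against *Wnt9b*KO 0 of 9 passed, against 0.121%, with 1 of 9 below an unadjusted p of 0.05 against 5.63%, and 1 of 9 passed by DESeq2. For the mean *Rspo2* effect and for the interaction 0 of 9 passed, each against 0.0635% of all genes, and 2 and 0 of 9 were below an unadjusted p of 0.05, against 9.38% and 9.45%. Libraries lay apart without overlap for *Fgf15* (higher) and *Fgfr3* (lower) in *Wnt9b*KO against wt, as for 28.3% and 28.0% of all genes, and for *Fgf15* in DKO against wt, as for 29.5%. In DKO against *Rspo2*KO they did so for *Fgf10*, *Fgf15* and *Fgf17* (higher, 18.2% of all genes) and for *Fgfr3* (lower, 18.3%). The share of FGF genes that passed was therefore not above that of all genes where many genes passed. Their median log2 differences lay between -0.06 and 0.15 over the 7 comparisons, beside medians of all genes of 0.00 to 0.01.

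**Figure D4:**
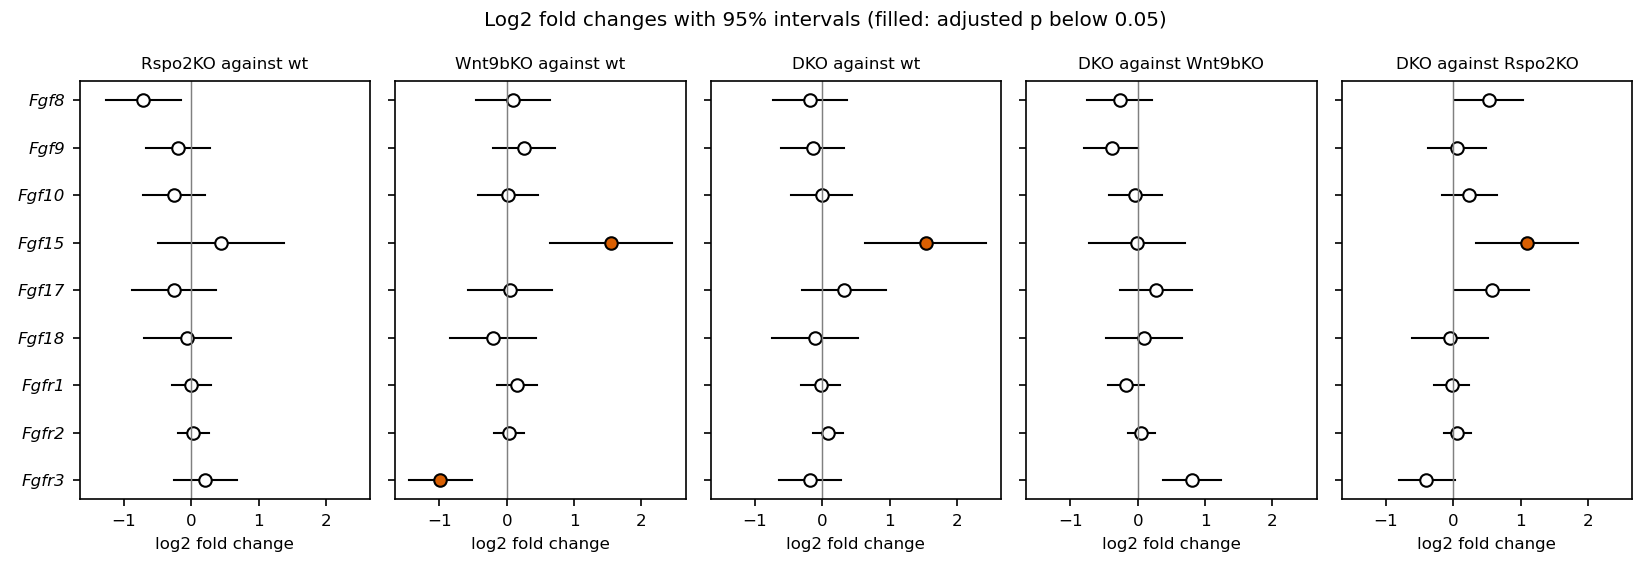
Log2 fold changes of the 9 genes in 5 comparisons with 95% intervals from edgeR, filled where the adjusted p is below 0.05. The filled points are *Fgf15* (1.55 in *Wnt9b*KO against wt, 1.54 in DKO against wt, 1.09 in DKO against *Rspo2*KO) and *Fgfr3* (-0.99 in *Wnt9b*KO against wt), and the intervals of *Fgfr1* and *Fgfr2* are the narrowest.

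For the remaining genes the closest profiles over the 11 libraries, again as a description, were those of *Gtpbp4* and *Fat2* for *Fgf8* (correlations 0.90 and 0.89), *Arhgef40* and *Mlxipl* for *Fgf9* (0.92 and 0.91), *Syngr2* and *Stat4* for *Fgf17* (both 0.88) and *Parp3* and *Bspry* for *Fgf18* (0.85 and 0.84). For the receptors they were *Adgra2* and *Gm2670* for *Fgfr1* (0.94 and 0.93) and *Prrxl1* and *Socs1* for *Fgfr2* (both 0.91).

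Summed over the 6 ligands, the level was 38.7 and 37.6 CPM in wt, 37.4, 32.4 and 27.5 CPM in *Rspo2*KO, 37.9, 54.4 and 50.9 CPM in *Wnt9b*KO and 49.0, 46.6 and 43.4 CPM in DKO. All 3 *Rspo2*KO sums lay below and all 3 DKO sums above wt, and *Wnt9b*KO overlapped with wt. The highest *Rspo2*KO sum, 37.4 CPM, was close to the lower wt sum, 37.6 CPM. A sum can follow a single gene: *Fgf15* averaged 4.04 CPM in wt and 11.6 CPM in DKO, and no other ligand passed in that comparison. The 3 receptors summed to 275 and 306 CPM in wt and to 256 to 326 CPM in the mutants, a range around that of wt. *Fgfr3*, the smallest part of that sum, averaged 45.4 CPM in wt and 22.9 CPM in *Wnt9b*KO.

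The other secreted FGFs were close to undetected. All 12 further ligands of the mouse averaged below 1 CPM, the highest being *Fgf1* at 0.816 CPM, and *Fgf4* and *Fgf21* had 0 counts in every library. Of the 5 that could be tested, 1 passed in *Wnt9b*KO against wt, where 32.8% of all genes passed. This was *Fgf2*, named here after its values were seen, which averaged 0.398 CPM over all libraries. It had 0 and 2 counts in wt, so no fold is given. *Fgfr4*, the fourth signaling receptor, averaged 0.249 CPM and was not tested. *Fgfrl1*, a receptor without a kinase, was 28.8 and 34.4 CPM in wt, 38.2, 35.2 and 32.0 CPM in *Rspo2*KO, 28.2, 24.4 and 28.1 CPM in *Wnt9b*KO and 25.02, 24.8 and 23.3 CPM in DKO. It fell in DKO against wt (log2 -0.38, SE 0.12, adjusted p = 0.0355) and against *Rspo2*KO (log2 -0.53, SE 0.11, adjusted p = 0.00471). The 4 intracellular FGF homologous factors gave no call in any comparison, where at most 32.8% of all genes passed.

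Of the 8 co-receptors and cofactors tested, 1 passed, in DKO against wt and against *Rspo2*KO, beside 27.5% and 18.2% of all genes. This was *Fgfbp3*, a secreted FGF binding protein, which rose from 8.31 CPM in wt to 14.1 CPM in DKO (log2 0.76, SE 0.23, adjusted p = 0.0222). Against *Rspo2*KO the log2 difference was 0.66 (SE 0.20, adjusted p = 0.0311).

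Genes of FGF signal transduction differed in both directions between wt and the libraries labelled *Wnt9b*KO and DKO. Here and for the lists below, the *Wnt9b* genotype cannot be told apart from the small nuclear RNA difference given above. In *Wnt9b*KO against wt it cannot be told apart from embryo sex either. Of 28 such genes, 6 rose and 9 fell in *Wnt9b*KO against wt, with a median log2 change of -0.01, and 6 rose and 7 fell in DKO, with a median of -0.03. Of all genes, 32.8% passed in *Wnt9b*KO against wt and 27.5% in DKO against wt, the background for this list and the lists below. The adaptors *Crkl* (log2 1.13 in *Wnt9b*KO, adjusted p = 0.00053, and 1.09 in DKO) and *Gab1* (23.8 CPM in wt, 47.5 CPM in *Wnt9b*KO and 49.1 CPM in DKO) and the ubiquitin ligase *Cbl* (log2 1.08 and 0.86) were among those that rose. *Hras*, a RAS protein, fell from 65.2 CPM in wt to 32.1 CPM in *Wnt9b*KO (log2 -1.02, SE 0.11, adjusted p = 1.65e-05) and to 36.5 CPM in DKO (-0.84). The adaptors *Crk* (-0.73 and -0.69) and *Shc1* (-0.69 and -0.70) fell too.

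The feedback inhibitors and transcriptional targets of FGF signaling were likewise divided. Of 20 genes, 5 rose and 3 fell in *Wnt9b*KO (median 0.23) and 4 rose and 5 fell in DKO (median 0.12), beside 32.8% and 27.5% of all genes called in either direction. *Spred2*, an inhibitor of RAS signaling, rose by 1.14 in *Wnt9b*KO (SE 0.26, adjusted p = 0.00428) and 0.89 in DKO (SE 0.26, adjusted p = 0.0199). *Dusp5*, a phosphatase of nuclear ERK, rose from 3.57 to 8.14 CPM in *Wnt9b*KO (log2 1.15, SE 0.32, adjusted p = 0.0132) and was 0.89 above wt in DKO with an adjusted p of 0.0516. *Rasa1*, a RAS GTPase activator, rose in both (0.77 and 0.81). *Dusp7* (-0.68 and -0.75) and *Dusp4* (-0.55 and -0.54), phosphatases of ERK, fell in both, and *Spry2*, a Sprouty inhibitor, fell from 27.5 CPM to 20.7 CPM in *Wnt9b*KO (adjusted p = 0.0282) and 18.3 CPM in DKO (adjusted p = 0.00529).

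Of 34 genes tested that make, carry or edit heparan sulfate, 8 rose and 7 fell in *Wnt9b*KO (median -0.04), and 6 rose and 5 fell in DKO (median -0.01), beside 32.8% and 27.5% of all genes. *Xylt1*, which starts the sugar chains, rose from 3.51 to 9.17 CPM in *Wnt9b*KO (log2 1.37, SE 0.21, adjusted p = 0.000337) and by 1.18 in DKO, and the core protein *Gpc4* rose in both (1.14 and 1.05). *Ext2*, a chain polymerase, fell in both (-0.86 and -0.80), as did the core protein *Sdc1* (-0.54 and -0.58). *Hs3st1*, a sulfotransferase, fell from 2.35 to 0.789 CPM in *Wnt9b*KO (log2 -1.55, SE 0.32, adjusted p = 0.00246) and was 0.57 below wt on the log2 scale in DKO (adjusted p = 0.175).

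In DKO against *Rspo2*KO, 11 of the 28 transduction genes (4 higher), 4 of the 20 feedback genes and targets (3 higher) and 7 of the 34 heparan sulfate genes (5 higher) passed, beside 18.2% of all genes. In *Rspo2*KO against wt and in DKO against *Wnt9b*KO, the comparisons within libraries of like small nuclear RNA content, 0 genes of these 3 lists passed by edgeR's adjusted p. Of all genes, 0.0346% and 0.121% passed there. By an unadjusted p below 0.05 and over 1.5-fold, 3 transduction, 1 feedback and 4 heparan sulfate genes were higher and 0 lower in *Rspo2*KO, where 4.0% of all genes were higher by this rule. In DKO against *Wnt9b*KO 1 heparan sulfate gene was higher, against 1.84% of all genes. Without *Wnt9b*KO 2 and DKO 3, the genes of all FGF lists that passed numbered 33 in place of 39 in *Wnt9b*KO against wt, 32 in place of 35 in DKO against wt and 18 in place of 24 in DKO against *Rspo2*KO.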

How the data were processed

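RNA from facial processes of 11 mouse libraries was sequenced by the authors as single-end reads, trimmed with Cutadapt, mapped to GRCm38 with STAR and counted per gene with HTSeq-Count. The study's methods name 3 samples per genotype, and 2 wt libraries were analysed here. The deposited values are whole-number counts per Ensembl gene, not normalized. Strand setting and annotation release are not given in the sources used here, so reads of overlapping genes on opposite strands cannot be told apart. For *Fgf15*, 761 of 3058 exon bases overlap *Gm26793*, which had 9 to 21 counts. For *Fgfr3*, 998 of 7158 exon bases overlap ENSMUSG00000106896 on the opposite strand, a gene absent from the deposited counts. Totals were 11136166 to 18017344 counts per library, with TMM factors of 0.9152 to 1.096, and 3 counts in the smallest wt library correspond to 0.268 CPM.

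Counts were tested with edgeR 4.0.16 (R 4.3.3, limma 3.58.1) by the quasi-likelihood test, two-sided, after filterByExpr on genotype, with a mean per genotype over all 11 libraries. Adjustment (Benjamini-Hochberg) covered 17317 genes. DESeq2 1.42.0, which the authors used, was an alternative. Further alternatives changed the scaling (RLE, upper quartile) or the filter (none, or 10 counts as the minimum everywhere). Others changed the samples (those of the 2 genotypes only, all but *Wnt9b*KO 2 and DKO 3, all but each library). Others changed the model (a block for replicate number, a loess offset of span 0.3 for GC content and length, or both). A last alternative, named the study's rule below, took an unadjusted p below 0.05 and over 1.5-fold with edgeR. The paper gives p below 0.05 with DESeq2 and does not say whether it was adjusted. The model was checked only on simulated counts with changes of known size in DKO. Those held no sex or small nuclear RNA difference between groups, so the check does not reach them. No libraries were duplicates (chi-square per degree of freedom 5.5 to 36.8 within groups). Names and lengths come from GENCODE M21 for 36723 of the genes and promoter sequences from RefSeq.

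The FGF genes and the lists were chosen with earlier results of these data known. Named beside the 9 genes were, per list and comparison with wt, up to 2 genes with the largest change in each direction with an adjusted p below 0.05 and a mean of at least 1 CPM, other ligands and receptors with a mean of at least 1 CPM, the 2 highest genes of each marker list, and the 2 genes most correlated with each of the 9 (log2 CPM, prior count 2). Exceptions are marked. Some marker genes, and the marker list of glia, are not reported here.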

Additional observations from a re-analysis of the deposited data

How the results depend on the processing

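Of 63 log2 fold changes (9 genes, 7 comparisons) with 1305 values under alternatives, 105 values in 31 results changed sign. All of these results were at most 0.45 in size, and none had passed. With group means removed, same-numbered libraries had correlations of -0.105 to 0.236, with 3 of 15 pairs over 0.1. Between the mutant groups every same-numbered pair was positive (0.041 to 0.236), while other pairs of these groups lay at -0.186 to 0.063. Whether replicate numbers mark a shared batch was not tested. A replicate block left the counts of FGF genes called at 0, 2, 1, 0 and 1. These are for *Rspo2*KO, *Wnt9b*KO and DKO against wt, DKO against *Wnt9b*KO and DKO against *Rspo2*KO. With 2 wt libraries and 14 to 29 reads of *Fgf18*, small differences were not detectable.

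Counts of FGF genes called moved as follows. In *Rspo2*KO against wt the study's rule called 1. In DKO against wt the GC content and length offset called 2, adding *Fgfr1*, and that offset also moved the share of all calls that were higher from 52.2% to 39.0%. In DKO against *Wnt9b*KO, DESeq2, no filter and the study's rule each called 1 (*Fgfr3*). In DKO against *Rspo2*KO, DESeq2 called 0, no filter 4 and a fit of only these groups 2. For the mean *Rspo2* effect no filter called 2, *Fgf8* and *Fgfr3*. Leaving out each library gave 1 to 2 in *Wnt9b*KO against wt, 0 to 1 in DKO against wt, 0 to 1 in DKO against *Wnt9b*KO, 0 to 2 in DKO against *Rspo2*KO and 0 to 1 for the mean effect, where the 1 came without DKO 1.

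Over the FGF lists together, *Rspo2*KO against wt gave 1 by DESeq2, 8 with no filter and 8 by the study's rule, in place of 0, and 0 to 1 without each library, the 1 being without wt 2. DKO against *Wnt9b*KO gave 1 by the study's rule, and the mean effect gave 1 by DESeq2 and 1 with no filter. The interaction gave 1 by DESeq2 and 5 with no filter. DKO against *Rspo2*KO gave 8 by the study's rule in place of 24, and 12 to 31 without each library, with 12 without *Rspo2*KO 3. DKO against wt gave 20 to 40 in place of 35, with 20 without wt 2.

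Among the log2 differences given singly in the results, signs changed as follows, all of values of at most 0.45 in size (the other sign changes were in differences not printed singly). In *Rspo2*KO against wt, *Fgfr1* (0.00) was 0.00 with RLE factors and by DESeq2, -0.15 with the offset, -0.11 with block and offset, -0.01 without *Wnt9b*KO 2 and DKO 3, and -0.08 to 0.07 without each library, and *Fgfr2* was -0.12, -0.14 with the block, and -0.03 to 0.11. In *Wnt9b*KO against wt, *Fgf8* was -0.03 with the block and -0.17 to 0.37 without each library. There *Fgf10* was -0.04 with the block, -0.02 with the offset, -0.05 with both and -0.14 to 0.26. *Fgfr1* was -0.15 with the offset and -0.12 with both, and *Fgfr2* was -0.24, -0.26 and -0.04 to 0.12. *Fgf17* was -0.28 without the 2 libraries and -0.25 to 0.32 without each library. In DKO against wt, *Fgf10* was 0.01 with upper-quartile factors, 0.00 with at least 10 counts, 0.04 without the 2 libraries and -0.11 to 0.09. *Fgfr1* was 0.01, 0.04 with the block, 0.07 without the 2 libraries and -0.09 to 0.07, and *Fgfr2* was -0.16 with the offset and -0.18 with both. *Fgf8* was -0.48 to 0.10 and *Fgfr3* -0.32 to 0.05. *Fgf15* in DKO against *Wnt9b*KO was 0.59 without the 2 libraries and -0.32 to 0.43, and its interaction was 0.16. *Fgf17* in DKO against *Wnt9b*KO was 0.00 to 0.60 without each library. The cause of these shifts was not tested.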
